A study of Homo sapiens with 6 samples.

Results

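The interferon regulatory factors IRF1, IRF2, IRF3, IRF7 and IRF9, the signal transducers STAT2 and STAT3, and the suppressors of cytokine signalling SOCS1 and SOCS3 were followed in CAL27 cells overexpressing RBM24, an RNA-binding protein that regulates splicing. These 9 genes were taken by symbol from the 32353 genes of the count table, and all 9 passed the filter on low counts that left 17887 genes for testing. CAL27 is an established line grown from a human squamous carcinoma of the tongue. RNA-seq was run on 3 libraries from cells with RBM24 overexpression and on 3 from cells that received a control plasmid. The labels name no clone, vector or time after transfection and no further treatment. They do not say whether replicates were separate cultures, so each p-value reflects only how far these libraries spread, which may be technical.

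Interferons and cytokines of the interleukin-6 family bind cell-surface receptors whose Janus kinases (JAKs) phosphorylate STAT proteins, which then enter the nucleus. STAT2 and IRF9 are subunits of the complex ISGF3, which binds interferon-stimulated response elements, while IRF3 and IRF7 switch on interferon genes after viral nucleic acid is sensed. IRF1 activates genes of the interferon-gamma response, IRF2 competes with it at shared sites, and SOCS1 and SOCS3 are induced by STATs and inhibit JAK signalling in turn.

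IRF1 and SOCS1 were the regulators called lower with RBM24, calls that ended under some of the alternatives described below. The stretches before their starts are shown. They hold letters of the response elements of this pathway, as does that of IRF9, which was not called. From RefSeq (GRCh38.p14), 250 bases before each gene's start were read 5′ to 3′ on the gene's strand, at chr5:132490774-132491023 (minus strand) for IRF1 and chr16:11256205-11256454 (minus strand) for SOCS1. Capitals mark matches to a gamma-activated site (GAS, TTCNNNGAA), an interferon-stimulated response element (ISRE, searched as GAAA, any 2 bases and GAAA again) or the NF-kB decamer.
IRF1: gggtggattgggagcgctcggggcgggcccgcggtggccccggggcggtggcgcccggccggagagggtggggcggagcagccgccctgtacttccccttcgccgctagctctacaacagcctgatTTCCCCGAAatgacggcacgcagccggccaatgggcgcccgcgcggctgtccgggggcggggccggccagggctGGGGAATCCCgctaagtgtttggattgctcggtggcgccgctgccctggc
SOCS1: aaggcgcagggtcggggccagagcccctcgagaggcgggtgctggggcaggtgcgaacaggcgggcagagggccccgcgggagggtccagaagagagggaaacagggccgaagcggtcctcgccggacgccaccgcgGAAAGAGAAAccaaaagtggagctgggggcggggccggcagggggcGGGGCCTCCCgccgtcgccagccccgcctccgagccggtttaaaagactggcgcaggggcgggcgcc

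In the IRF1 window the GAS match began 124 bases before the start, and a decamer match began 50 bases before it. The SOCS1 window held an ISRE match that began 113 bases before the start and a decamer match that began at 67 bases. Each motif was searched on both strands, and no marked matches overlapped. Of 35116 RefSeq windows of the same length, 3.02% held the ISRE letters, 6.57% the GAS letters and 9.96% the decamer. Windows matched 6 of the 9 genes, and IRF2, IRF3 and IRF7 had none. Starts here are those of RefSeq, which differ from the GENCODE starts given with each gene further on: the end of the IRF1 window reaches into the gene as GENCODE places it, and the SOCS1 window lies just before it. The windows of IRF9, STAT2, STAT3 and SOCS3, like that of IRF1, lie partly or wholly away from the stretch before the GENCODE start. Their letters are not shown. The IRF9 window held a GAS match that began 63 bases before the RefSeq start, and those of STAT2, STAT3 and SOCS3 held no match. A match describes letters, and binding was not measured here.

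The libraries held between 53558773 and 68804210 gene counts. RBM24 itself stood at 119.6 ± 8.89 CPM with overexpression and 2.93 ± 0.576 CPM with control plasmid (SD, n = 3 each), and the counts do not separate plasmid transcripts from those of the cell's own gene. CPM are counts scaled to the library total with TMM factors, in the usual unit of that name. Control library 1 stood apart on the first principal component (33% of the variance), at -33.4, whereas the other 5 libraries lay between -4.95 and 15.4. The 10 squamous epithelial markers, among them KRT5, TP63 and CDH1, all passed the filter, with sums of 1465 to 1491 CPM in RBM24 libraries and 1381 to 1428 CPM in control libraries. Of 9 immune markers, CD14 and CD68 passed, with sums of 19.2 to 20.02 CPM with RBM24 and 18.7 to 21.8 CPM with control plasmid, and the pan-leukocyte gene PTPRC had 0 counts outside control library 1, where it had 3. Of 7 fibroblast markers, 4 passed, with sums of 15.9 to 16.9 CPM with RBM24 and 13.7 to 16.4 CPM with control plasmid, while COL3A1, DCN and THY1 had 0 to 5 counts. Of 5 endothelial markers, 3 passed, with sums of 8.69 to 9.72 CPM with RBM24 and 9.53 to 11.6 CPM with control plasmid. edgeR called 0 markers, DESeq2 called 1 squamous marker, and 2 squamous, 1 fibroblast and 1 endothelial marker had an unadjusted p under 0.05. Their part in the results was not tested.

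Among the 9 regulators, IRF1 and SOCS1 fell with RBM24 and none rose, with calls made below 0.05 on p-values of edgeR's quasi-likelihood test that were Benjamini-Hochberg adjusted over all 17887 genes. The background was 0.682% of all tested genes for lower calls and 0.855% for higher calls. DESeq2 called the same 2 regulators lower and 0 higher, and limma-voom called 1, IRF1. With each library left out in turn, edgeR called 0 to 2 of the 9. At an unadjusted p under 0.05, 2 regulators were higher, IRF7 and IRF9, and 2 were lower. The share of all tested genes under that cut was not counted. The median log2 fold change of the 9 genes was -0.0025, beside -0.0037 over all tested genes, and it was above 0 under 6 of 17 alternatives, total-count scaling among them (0.027). CPM values of the 2 groups did not overlap for 3 of the 9, IRF1, SOCS1 and IRF7, against 18.1% of all tested genes in either direction, 8.62% lower and 9.53% higher. Each library's values are shown in the plot of levels by gene.

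**Figure D1:**
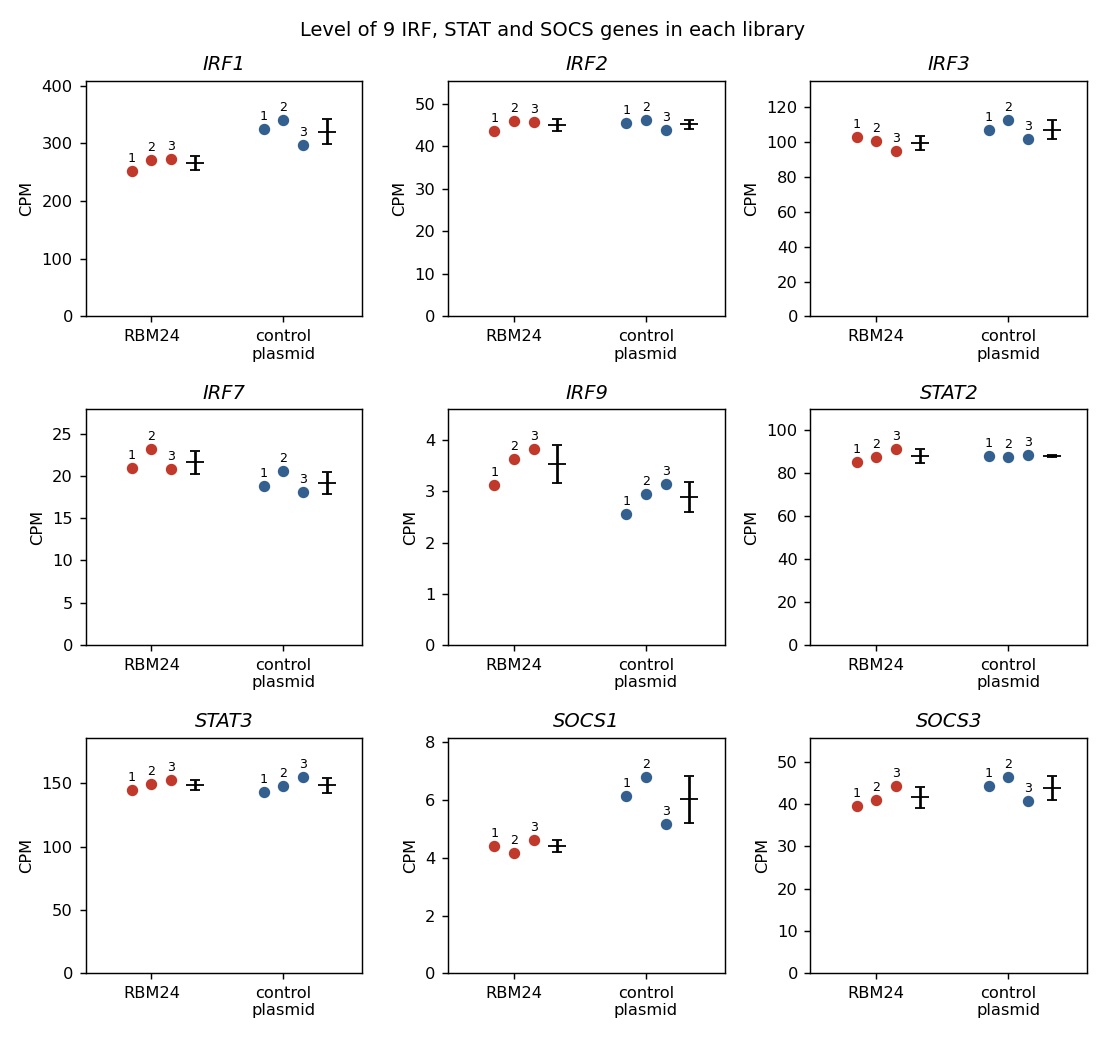
Level of each of the 9 regulators in CPM (vertical axis, from 0) in the 3 RBM24 libraries (left) and the 3 control plasmid libraries (right). Points are libraries and bars give the mean ± SD. The RBM24 points lie below every control point for IRF1 and SOCS1 and above every control point for IRF7.

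Levels of different genes were compared in FPKM, which divides by gene length. With RBM24, IRF3 came first at 24.5 ± 0.878 FPKM and IRF1 next at 20.2 ± 1.03 FPKM (SD, n = 3). With control plasmid, IRF3 stood at 25.7 ± 0.989 FPKM and IRF1 at 23.9 ± 1.22 FPKM (SD, n = 3). The lowest IRF3 and the highest IRF1 library were apart with RBM24, at 23.5 and 20.9 FPKM, and overlapped with control plasmid, at 25.11 and 25.14 FPKM. SOCS3, IRF2, STAT2 and STAT3 followed in that order in both groups, between 12.4 and 14.2 FPKM on average with RBM24 and between 12.1 and 14.6 FPKM with control plasmid. Neighbours among these 4 genes overlapped, except that SOCS3 lay above IRF2 in every control library. IRF7 averaged 7.76 ± 0.497 FPKM with RBM24 and 6.72 ± 0.385 FPKM with control plasmid (SD, n = 3 each). SOCS1 averaged 2.30 ± 0.121 FPKM with RBM24 and 3.08 ± 0.365 FPKM with control plasmid (SD, n = 3 each). IRF9 came last at 0.923 ± 0.103 FPKM with RBM24 and 0.737 ± 0.0907 FPKM with control plasmid (SD, n = 3 each). That place, and the IRF9 percentile below, hold for the IRF9 entry alone and may understate the gene. A read-through entry that shares exons with IRF9, described further on, averaged 6.94 FPKM with RBM24 and 5.53 FPKM with control plasmid. Among tested protein-coding genes, the control level of IRF3 was at percentile 88.5, that of IRF1 at 87.6, that of SOCS1 at 45.1 and that of IRF9 at 21.9.

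IRF1 (ENSG00000125347.15; GRCh38 chromosome 5, 132481609 to 132490798, minus strand), the activator induced by interferon-gamma, had 251, 271 and 273 CPM in RBM24 libraries 1 to 3. In control libraries 1 to 3 it had 324, 339.8 and 297 CPM. All RBM24 values were thus below all control values, and control library 3 was the nearest to them. IRF1 fell to 265 ± 11.9 CPM with RBM24, against 320.2 ± 21.8 CPM with control plasmid (SD, n = 3 each). The log2 fold change was -0.27 (SE 0.058, 95% interval -0.40 to -0.15; edgeR adjusted p = 0.0236), a fold of 0.828. In such bulk samples, fewer cells that express a gene and less RNA per cell cannot be told apart. The call ended without RBM24 library 1 (edgeR adjusted p = 0.164), RBM24 library 2 (0.108) or control library 2 (0.0682), and in each limma fit to the FPKM values (0.144 to 0.299). Across the 17 alternatives the adjusted p lay between 1.05e-04 and 0.299 and the log2 fold change between -0.33 and -0.23.

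The IRF1 exons share 1716 bases with IRF1-AS1, an antisense RNA gene. The sources used here do not give whether counting used strand, so reads of the overlap cannot be assigned to either gene. IRF1-AS1 averaged 20.1 CPM with RBM24 and 23.0 CPM with control plasmid, a log2 fold change of -0.20 that was not called (SE 0.067; edgeR adjusted p = 0.199). Its groups did not overlap. The protein-coding entry AC116366.7, which shares 469 exonic bases on the opposite strand, averaged 57.7 CPM in both groups.

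IRF2 (chromosome 4, 184387713 to 184474580), the antagonist at IRF1 sites, had 43.4, 46.0 and 45.7 CPM in RBM24 libraries and 45.4, 46.1 and 43.9 CPM in control libraries. The groups overlapped. The log2 fold change was -0.0025 (95% interval -0.12 to 0.11; edgeR adjusted p = 0.993), and it was above 0 under 8 of 17 alternatives. The ratio of IRF1 to IRF2 within a library does not depend on library scaling. In FPKM it was 1.45, 1.47 and 1.497 in RBM24 libraries and 1.79, 1.85 and 1.69 in control libraries. The ratio was lower in every RBM24 library than in every control library, with means of 1.47 ± 0.0239 with RBM24 and 1.78 ± 0.0775 with control plasmid (SD, n = 3 each). The difference was -0.303, and a two-sided exact permutation test gave p = 0.1, the smallest value that 3 against 3 libraries allow.

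IRF3 (chromosome 19, 49659569 to 49665875), which the kinase TBK1 activates, had 103, 100.4 and 94.97 CPM in RBM24 libraries and 107, 112 and 101 CPM in control libraries. RBM24 library 1 lay above control library 3, so the groups overlapped. Its log2 fold change of -0.10 was not called (95% interval -0.21 to 0.0092; edgeR adjusted p = 0.430). IRF3 exons share 734 bases, 19.3% of their length, with BCL2L12 on the opposite strand, which averaged 43.9 CPM with RBM24 and 40.9 CPM with control plasmid and was not called (log2 fold change 0.10, edgeR adjusted p = 0.547).

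IRF7 (chromosome 11, 612553 to 615999), the interferon-induced factor that amplifies type I interferon transcription, had 20.9, 23.2 and 20.8 CPM in RBM24 libraries and 18.8, 20.6 and 18.1 CPM in control libraries. All RBM24 values were above the control values, with RBM24 library 3 just above control library 2. The log2 fold change of 0.17 did not pass (SE 0.070, 95% interval 0.025 to 0.32; edgeR adjusted p = 0.293). It passed under none of 17 alternatives (adjusted p 0.145 to 0.701).

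STAT2 (chromosome 12, 56341597 to 56360155), the ISGF3 subunit with the transactivation domain, had 85.1, 87.5 and 91.3 CPM in RBM24 libraries and 87.8, 87.7 and 88.2 CPM in control libraries. The control values lay inside the range of the RBM24 values. The fold was estimated between 0.933 and 1.07 (95% interval; log2 fold change 0.00099, edgeR adjusted p = 0.997), and its log2 sign turned negative in 3 of 17 alternatives.

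IRF9 (ENSG00000213928.9; chromosome 14, 24161053 to 24166565, plus strand), the DNA-binding subunit of ISGF3, had raw counts of 216, 197 and 236 in RBM24 libraries and 141, 159 and 198 in control libraries. In CPM these were 3.13, 3.64 and 3.83 with RBM24 and 2.56, 2.96 and 3.15 with control plasmid. RBM24 library 1 lay just under control library 3. The log2 fold change of 0.29 was not called (SE 0.12, 95% interval 0.030 to 0.54; edgeR adjusted p = 0.316).

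The IRF9 value is uncertain, because a read-through entry (ENSG00000259529.2, 24151218 to 24167402) spans the gene on the same strand and shares 1838 exonic bases with it, 48.4% of the IRF9 exons. That entry had 2648, 2292 and 2667 counts in RBM24 libraries and 1880, 1916 and 1977 in control libraries, between 90.9% and 93.0% of the counts of both entries together. The read-through entry rose to 41.3 ± 2.64 CPM with RBM24, against 33.7 ± 2.14 CPM with control plasmid (SD, n = 3 each; log2 fold change 0.29, SE 0.065, edgeR adjusted p = 0.0305). The entry's groups did not overlap. Its call ended without RBM24 library 2 (edgeR adjusted p = 0.191), RBM24 library 3 (0.116) or control library 3 (0.109), and over 17 alternatives the adjusted p ranged from 4.03e-04 to 0.234. RNF31, the neighbouring gene that the entry also overlaps and which encodes a subunit of a ubiquitin ligase complex, averaged 34.7 ± 0.841 CPM with RBM24 and 35.2 ± 2.65 CPM with control plasmid (SD, n = 3 each; log2 fold change -0.019, edgeR adjusted p = 0.940). When the counts of IRF9 and this entry were summed, an alternative chosen after the data were seen, the sum was 41.5, 46.0 and 47.2 CPM in RBM24 libraries and 36.7, 38.6 and 34.6 CPM in control libraries. This sum passed the test, with a log2 fold change of 0.29 (SE 0.064; edgeR adjusted p = 0.0264). Because the read-through entry made up most of the sum and was called alone, the sum adds little on the IRF9 entry itself. How the counter shared reads between the entries is not stated.

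**Figure D2:**
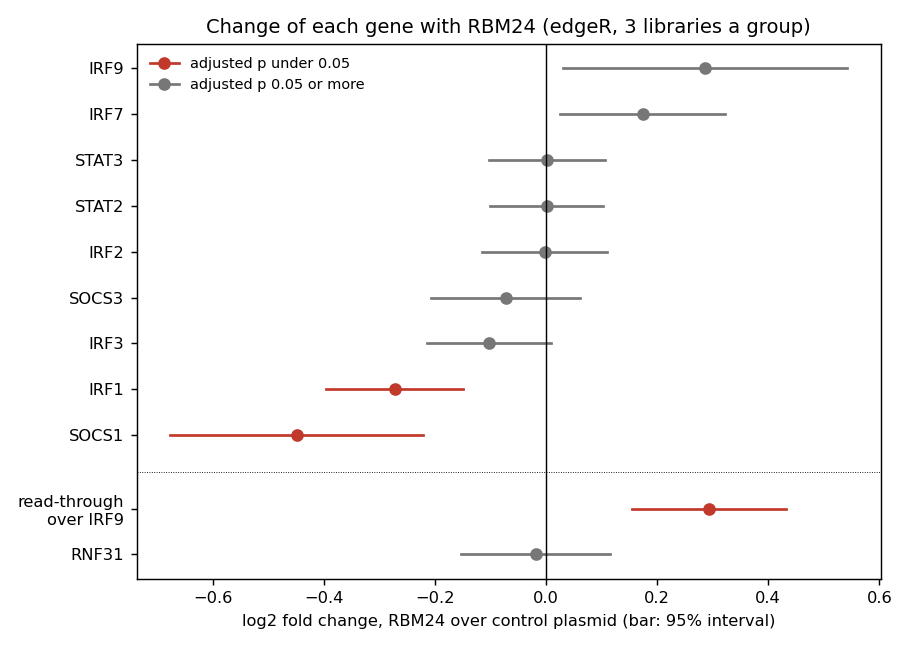
Log2 fold change, RBM24 over control plasmid (horizontal axis), of the 9 regulators, the read-through entry over IRF9 and RNF31. Points are edgeR estimates and bars 95% intervals, coloured by whether the adjusted p was under 0.05. SOCS1 at -0.45 and IRF1 at -0.27 lie at the low end, and IRF9 and the entry over it share a value of 0.29.

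STAT3 (chromosome 17, 42313324 to 42388568), the transducer of interleukin-6 family cytokines, had 145, 149 and 152 CPM in RBM24 libraries and 143, 148 and 155 CPM in control libraries. The groups overlapped throughout. The fold was estimated between 0.931 and 1.08 (95% interval; log2 fold change 0.0014, edgeR adjusted p = 0.995), and its log2 sign turned negative in 4 of 17 alternatives.

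SOCS1 (ENSG00000185338.7; chromosome 16, 11254405 to 11256200, minus strand), an inhibitor of JAKs that limits interferon signalling, had 4.42, 4.18 and 4.61 CPM in RBM24 libraries on raw counts of 305, 226 and 284. In control libraries it had 6.13, 6.79 and 5.16 CPM on raw counts of 337, 365 and 325. The groups did not overlap, and control library 3 was again the nearest to the RBM24 libraries. SOCS1 fell to 4.40 ± 0.219 CPM with RBM24, against 6.03 ± 0.816 CPM with control plasmid (SD, n = 3 each), a log2 fold change of -0.45 (SE 0.11, 95% interval -0.68 to -0.22; edgeR adjusted p = 0.0466). The call ended without any 1 of RBM24 libraries 1, 2 and 3 or control libraries 1 and 2 (edgeR adjusted p = 0.0607 to 0.208), with limma-voom (0.0674) and in the limma fits to FPKM (0.151 to 0.323). Across the 17 alternatives the adjusted p lay between 0.00274 and 0.323 and the log2 fold change between -0.55 and -0.30. SOCS1 lies within RMI2 on the opposite strand, with which it shares 0 exonic bases. RMI2 averaged 32.4 CPM with RBM24 and 31.2 CPM with control plasmid and was not called (edgeR adjusted p = 0.796).

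SOCS3 (chromosome 17, 78356778 to 78360077), the inhibitor of signalling through the interleukin-6 receptor chain gp130, had 39.4, 41.0 and 44.3 CPM in RBM24 libraries and 44.1, 46.3 and 40.7 CPM in control libraries. The groups overlapped, and the log2 fold change of -0.073 was not called (95% interval -0.21 to 0.061; edgeR adjusted p = 0.680). Among the controls, library 2 was highest and library 3 lowest for 6 of the 9 regulators, IRF1, IRF2, IRF3, IRF7, SOCS1 and SOCS3.

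**Figure D3:**
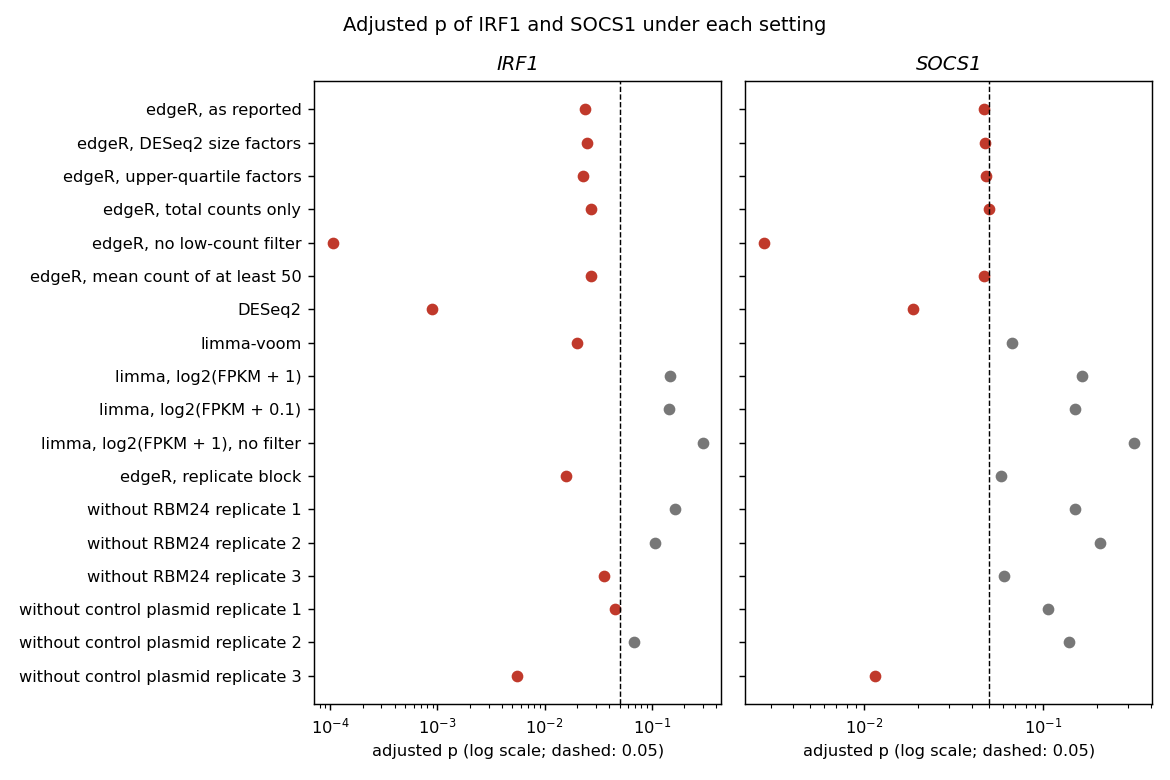
Adjusted p (log scale) of IRF1 and SOCS1 in edgeR as reported and under each of 17 alternatives, with a line at 0.05. IRF1 was called in 11 alternatives and SOCS1 in 7.

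Genes with library profiles most like those of 4 regulators were sought among 10734 other protein-coding genes, by the root-mean-square difference between log2 CPM profiles over 6 libraries, each centred on its own mean. Closest to IRF1 were SEMA4C at 0.0266, TNFAIP2 at 0.0355 and RHBDF2 at 0.0367, while the IRF1 profile departed from its own mean by 0.152. TNFAIP2 is a gene induced by tumour necrosis factor, and RHBDF2 encodes iRhom2, which traffics the protease that sheds that cytokine. RHBDF2 fell (log2 fold change -0.24, edgeR adjusted p = 0.0318), a call that ended without any library but control library 3 (0.0579 to 0.203) and with total-count scaling (0.0647), in a range of 0.00468 to 0.228 over 17 alternatives. SEMA4C (-0.24, edgeR adjusted p = 0.0980) and TNFAIP2 (-0.23, adjusted p = 0.0871) did not pass. Among the closest to IRF7 were RP11-330H6.5 at 0.0298 and MAPKAPK2 at 0.0315, neither of which passed. STAT3 was closest to WASF2, DENND4B and SLC22A23, at 0.00804 to 0.00921, beside its own 0.0391. Among the closest to SOCS3 were TMEM116 at 0.0311 and TRIM21 at 0.0317, beside its own 0.0816. These values are descriptions over the same 6 libraries.

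The rest of the pathway was read from 8 lists of 152 genes, of which 149 were in the count table and 139 were tested. Of these, 6 rose and 10 fell in edgeR, where 1.54% of all tested genes were called in either direction, 0.855% higher and 0.682% lower. With total counts in place of TMM scaling the split of the pathway genes was 8 higher and 8 lower. The 16 edgeR calls all lay in the 3 lists of target genes. Over all 17887 tested genes DESeq2 called 212 higher and 160 lower, and the median edgeR log2 fold change was -0.0037. Shares of each sign and of unadjusted p under 0.05 were not counted over all tested genes.

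Of 13 tested relatives from the IRF, STAT and SOCS families, edgeR, DESeq2 and limma-voom each called 0, and 3 had an unadjusted p under 0.05. SOCS2, a feedback inhibitor of growth hormone signalling, averaged 6.43 ± 0.450 CPM with RBM24 and 5.48 ± 0.0208 CPM with control plasmid (SD, n = 3 each). Its groups did not overlap, but it was not called (log2 fold change 0.23, edgeR adjusted p = 0.271).

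Of 17 listed ligands, 10 were tested, and edgeR, DESeq2 and limma-voom each called 0, with 2 at an unadjusted p under 0.05. The interleukin-6 family cytokine gene LIF averaged 148 ± 8.86 CPM with RBM24 and 162 ± 10.05 CPM with control plasmid (SD, n = 3 each; log2 fold change -0.13, edgeR adjusted p = 0.326). CLCF1, of the same family, had 18.1, 20.9 and 21.04 CPM in RBM24 libraries and 17.8, 18.02 and 18.03 CPM in control libraries (log2 fold change 0.15, edgeR adjusted p = 0.362).

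Of 18 receptor and JAK genes, 15 had negative log2 fold changes, with a median of -0.083, beside -0.0037 over all tested genes. edgeR and limma-voom called 0, DESeq2 called 1 lower, and 5 had an unadjusted p under 0.05, all lower. IFNGR1, the ligand-binding chain of the interferon-gamma receptor, had 89.15, 97.6 and 104 CPM in RBM24 libraries and 130.4, 113 and 106 CPM in control libraries. The groups did not overlap, though RBM24 library 3 lay only just below control library 3. Its log2 fold change of -0.26 did not pass (SE 0.071, edgeR adjusted p = 0.0874). It passed by DESeq2 (0.0265), with no low-count filter (2.05e-04) and without RBM24 library 3 (0.0413) or control library 3 (0.0241), in a range of 2.05e-04 to 0.515 over 17 alternatives. LIFR, the LIF receptor gene, stood at 13.1 ± 1.29 CPM with RBM24 and 15.5 ± 1.52 CPM with control plasmid (SD, n = 3 each; log2 fold change -0.25, edgeR adjusted p = 0.200).

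Of 17 negative regulators and cofactors, edgeR, DESeq2 and limma-voom each called 0, with 1 at an unadjusted p under 0.05. PIAS4, which restrains STAT activity as a SUMO ligase, had a log2 fold change of 0.16 (edgeR adjusted p = 0.363), and IRF2BPL, a relative of the IRF2-binding corepressors, 0.12 (adjusted p = 0.386). Of 16 activators of IRF3 and IRF7, edgeR, DESeq2 and limma-voom each called 0, with 1 at an unadjusted p under 0.05. The double-stranded RNA receptor gene TLR3 stood at a log2 fold change of -0.17 (edgeR adjusted p = 0.364) and the IRF kinase gene IKBKE at -0.13 (adjusted p = 0.435).

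**Figure D4:**
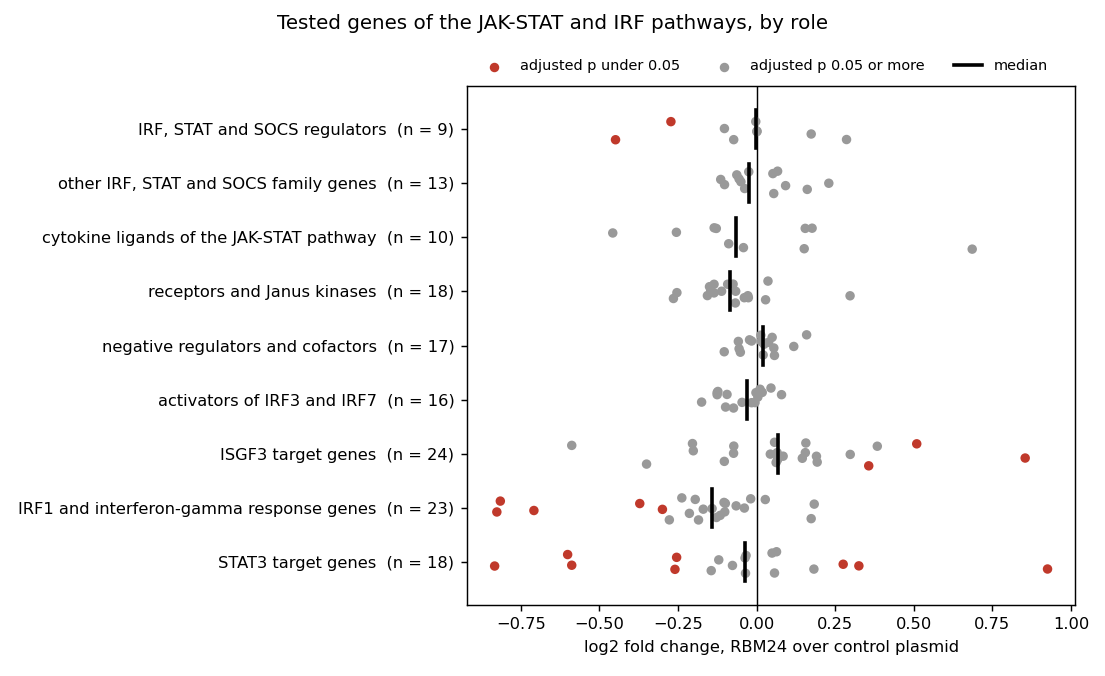
Log2 fold change, RBM24 over control plasmid (horizontal axis), of the tested genes in each list (rows). Each point is a gene, coloured where the edgeR adjusted p was under 0.05, with vertical scatter for legibility, and bars are list medians. Called genes lie among the 9 regulators (2 of them) and in the 3 lists of target genes (16).

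Of 23 tested IRF1 and interferon-gamma response genes, 5 fell and 0 rose in edgeR, 20 had negative log2 fold changes, and the median was -0.14. DESeq2 called 8 lower and 0 higher, limma-voom called 5 lower and 0 higher, and at an unadjusted p under 0.05 edgeR had 13 lower and 1 higher. The groups did not overlap for 14 of the 23, against 18.1% of all tested genes in either direction and 8.62% lower. The same held for 10 of the 18 STAT3 target genes and 7 of the 24 ISGF3 target genes described below. The tryptophan-degrading enzyme gene IDO1 fell to 14.3 ± 2.20 CPM with RBM24, against 25.4 ± 4.54 CPM with control plasmid (SD, n = 3 each; log2 fold change -0.83, edgeR adjusted p = 0.00113). The chemokine genes CXCL10 (-0.81, edgeR adjusted p = 0.00577) and CXCL11 (-0.71, adjusted p = 0.00622) and the adhesion gene ICAM1 (-0.37, adjusted p = 0.0159) fell as well. GBP4, an interferon-induced guanylate-binding protein gene, had 53.9, 60.5 and 68.2 CPM in RBM24 libraries and 78.4, 73.2 and 72.9 CPM in control libraries (log2 fold change -0.30, edgeR adjusted p = 0.0391).

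The median of the IRF1 and interferon-gamma list about each gene's mean was -0.097, -0.074 and -0.045 in RBM24 libraries and 0.13, 0.080 and 0.011 in control libraries, on the log2 scale. Control library 1, which stood apart, was thus the highest. Without it GBP4 lost its call (edgeR adjusted p = 0.111), and IDO1, CXCL10, CXCL11 and ICAM1 kept theirs. The GBP4 call also ended without RBM24 library 1 or 2 or control library 3 (edgeR adjusted p = 0.0534 to 0.216) and with total-count scaling (0.0619), in a range of 2.74e-05 to 0.462. That of ICAM1 ended without RBM24 library 1 (edgeR adjusted p = 0.0951) or 2 (0.103), in a range of 1.40e-08 to 0.335.

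Of 24 ISGF3 target genes, 3 rose and 0 fell in edgeR, where 0.855% of all tested genes were higher and 0.682% lower. Positive log2 fold changes were seen for 17 of the 24, and the median was 0.067, beside -0.0037 over all tested genes. DESeq2 called 2 higher and 1 lower, and at an unadjusted p under 0.05 edgeR had 7 higher and 4 lower. The interferon-induced genes IFI27 (log2 fold change 0.85, edgeR adjusted p = 2.32e-04) and IFI6 (0.51, adjusted p = 0.00131) rose, as did the oligoadenylate synthetase gene OAS3 (0.36, adjusted p = 0.0317). OAS3 had 234, 257 and 313 CPM in RBM24 libraries and 222, 202 and 203 CPM in control libraries. Its call ended without RBM24 library 2 or 3 or control library 2 or 3 (edgeR adjusted p = 0.0788 to 0.0947) and with DESeq2 (0.141), in a range of 2.18e-08 to 0.390. Without RBM24 library 3 the OAS3 log2 fold change was 0.23. The list's median about each gene's mean was -0.091, 0.0091 and 0.19 in RBM24 libraries and 0.061, -0.077 and -0.14 in control libraries, so that the groups overlapped. RBM24 library 3 was the highest, RBM24 library 1 lay below control libraries 1 and 2, and RBM24 library 2 lay below control library 1.

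Of 18 tested STAT3 target genes, 3 rose and 5 fell in edgeR, with a median of -0.036. DESeq2 called 3 higher and 4 lower, and at an unadjusted p under 0.05 edgeR had 4 higher and 6 lower. The genes that rose were FOS (log2 fold change 0.93, edgeR adjusted p = 4.73e-04), a component of the transcription factor AP-1, the survival gene BCL2L1 (0.33, adjusted p = 0.00665) and BIRC5 (0.28, adjusted p = 0.0133), which encodes survivin. Those that fell were the calprotectin genes S100A8 (-0.83, edgeR adjusted p = 0.00862) and S100A9 (-0.60, adjusted p = 0.00312), the protease inhibitor gene SERPINA3 (-0.59, adjusted p = 0.0159), the siderophore-binding lipocalin gene LCN2 (-0.25, adjusted p = 0.0303) and the transcription factor gene CEBPD (-0.26, adjusted p = 0.0429). LCN2 had 283, 278 and 269 CPM in RBM24 libraries and 345, 342 and 303 CPM in control libraries.

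Several of these STAT3 target calls ended when a library was left out. That of LCN2 ended without any library but control library 3 (edgeR adjusted p = 0.0735 to 0.161), in a range of 4.71e-04 to 0.252. That of CEBPD ended without RBM24 library 1, 2 or 3 or control library 2 (edgeR adjusted p = 0.0593 to 0.213) and with total-count scaling (0.0672), in a range of 0.00123 to 0.386. BIRC5 lost its call without RBM24 library 1 or 2 (edgeR adjusted p = 0.0942 to 0.0951; range 6.77e-05 to 0.143), and SERPINA3 without RBM24 library 1 or control library 1 (0.0543 to 0.0951; range 3.03e-05 to 0.324). S100A8 lost its call with DESeq2 (adjusted p = 0.0690) and kept it without each library. In limma fits to the FPKM values, FOS alone of the pathway genes was called on log2(FPKM + 1), and FOS and IFI27 on log2(FPKM + 0.1). On log2(FPKM + 1), a scale that understates changes of low genes, the log2 fold change was 0.47 for FOS and -0.25 for SERPINA3.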

How the data were processed

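RNA-seq of 6 CAL27 libraries was analysed from 2 tables. HISAT2 and GRCh38 are named, per the submitters' processing notes; the HISAT2 version, the counter, the annotation and strandedness are not given in the sources used here. Raw read counts per gene, as whole numbers, were deposited in the first table. The deposited FPKM values had been divided by gene length and library size by the authors. Columns marked NC were read as control plasmid. Splicing was not analysed here.

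Genes kept by filterByExpr were scaled with TMM and tested with edgeR 4.0.16 (quasi-likelihood, group alone, 4 residual degrees of freedom) in R 4.3.3, with Benjamini-Hochberg adjustment over all tested genes. IRF9 and SOCS1 had 141 to 365 counts per library, and those of IRF9 also depend on how reads were shared with the read-through entry. Coordinates and exon overlaps come from GENCODE 29. Alternatives used DESeq2 1.42.0, limma 3.58.1 (with voom, or on log2(FPKM + 1) and log2(FPKM + 0.1)), other scalings and filters, a replicate block, and each library left out. The summed IRF9 entries were added after seeing the data. The edgeR step was tested on simulated data.

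The members and lists were chosen with earlier results of these data known. The genes named were RBM24, the 9 regulators, the called genes of each list or otherwise the 2 with the smallest p, and the 3 closest profiles; overlapping genes were named for their position. Some genes that this rule names are not reported here. Same-numbered libraries deviated with correlations of 0.0072, 0.056 and -0.00039, so numbers were not taken as pairs.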

Additional observations from a re-analysis of the deposited data

How the results depend on the processing

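Of the 9 regulators, 7 were called under none of 17 alternatives, and the calls of IRF1 and SOCS1 ended under some. The number called was 2, with 1 under limma-voom and 1 with the replicate block, 0, 0 and 0 in limma fits to log2(FPKM + 1), log2(FPKM + 0.1) and unfiltered FPKM, and 0 to 2 with a library left out. It was 3 with the IRF9 entries summed, a sum made up mostly of the read-through entry and not refitted without single libraries. Over all genes 275 were called, against 646 with no low-count filter, 50, 62 and 19 in the FPKM fits, and 90 to 328 with a library left out (90 without RBM24 library 2, 101 without RBM24 library 1). Total counts gave 223 higher and 106 lower, against 153 and 122. In the pathway lists 16 were called, against 28 with no filter, 1, 2 and 0 in the FPKM fits, and 10 to 18 with a library left out (10 without RBM24 library 2). The replicate block, on numbers that did not pair the libraries, gave 293 genes, 16 pathway genes and an adjusted p of 0.0580 for SOCS1. The IRF1 to IRF2 ratio differed by -1.21 in CPM, and by -0.344 to -0.268 in FPKM without each library. The causes were not tested.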

Other observations

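Ligands and regulators that did not pass the low-count filter had few reads in every library; those given here were chosen after their values were seen. The interferon-gamma gene IFNG had 0, 0 and 1 counts in RBM24 libraries 1 to 3 and 0, 0 and 0 in control libraries 1 to 3. The interferon-lambda gene IFNL2 had 3, 0 and 6 counts in RBM24 libraries and 13, 8 and 9 in control libraries. Its near-identical relative IFNL3 had 11, 6 and 3 counts in RBM24 libraries and 9, 12 and 5 in control libraries, so the split of reads between both genes is uncertain. The interferon-beta gene IFNB1 passed the filter, with 18, 15 and 11 counts in RBM24 libraries and 14, 13 and 9 in control libraries, and was not called (edgeR adjusted p = 0.897).

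IRF4, a lymphoid member of the IRF family, had 0, 2 and 0 counts in RBM24 libraries and 1, 0 and 1 in control libraries. IRF8, its myeloid relative, had 5, 6 and 7 counts in RBM24 libraries and 1, 8 and 3 in control libraries. CXCL9, a chemokine gene of the interferon-gamma response, had 2, 6 and 4 counts in RBM24 libraries and 11, 1 and 8 in control libraries.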
